A study of Mus musculus with 66 samples.

Results

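Upstream antisense RNA is the short transcript made from the strand opposite a gene, starting near its promoter and running away from it. The genes described here had 2 or more polyadenylation sites (pA sites) of upstream antisense RNA in the 3′READS table. There were 655 such genes among the 2255 genes with any antisense site, and they held 1695 of the 3295 antisense sites. They are called multi-site genes below. The whole table held 59578 pA sites of 15856 genes. For each gene, the site closest to the sense gene was taken as the near end and the one farthest from it as the far end. The question was whether antisense RNA became longer, with reads moving from near to far ends, or became more abundant at all of its ends with each knockdown.

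The cells were C2C12 mouse myoblasts, a line of dividing muscle precursor cells, transfected for 48 h with 50 nM siRNA. All libraries came from cells that received an siRNA, either a control siRNA (named siNS in the labels, siCtrl here) or an siRNA against Paf1, Cdc73 or Ski8. The last of these is listed under the symbol Wdr61. Control, siPaf1 and siCdc73 cells each gave 2 libraries of 3′READS and 2 of RNA-seq, 1 from batch 1 and 1 from batch 2. The siSki8 cells gave 1 library of each kind, from batch 2. The labels give no separate cultures beyond the batch, so p-values measure the spread between these libraries. The siSki8 tests borrow their spread from the other libraries, and all 3 comparisons share the control libraries.

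Promoters of most mammalian genes are transcribed in both directions. The antisense product is usually ended early by cleavage and polyadenylation at signals such as AATAAA and is then degraded by the nuclear exosome, while U1 snRNP protects sense transcripts from early cleavage. Paf1, Cdc73 and Ski8 are subunits of the Paf1 complex, which travels with RNA polymerase II and takes part in elongation, histone modification and RNA 3′ end formation. 3′READS sequences the ends of polyadenylated RNAs, and each read with non-genomic T from the poly(A) tail marks the place of a cleavage (a PASS read).

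The windows below, from 4 multi-site genes, show the kinds of antisense ends found. The windows are the 30 bases before each cleavage position in mm9, on the antisense strand, and capitals mark AATAAA or its variant ATTAAA. Id3 is shown because its antisense RNA was higher at both ends with siPaf1 and siCdc73, and both ends had AATAAA.
Id3 near end, chr4:135697619-135697648, minus strand: atttggAATAAAttattctctgagcctcaa
Id3 far end, chr4:135697409-135697438, minus strand: ctagtgctggtAATAAAggatccaccacta
Tgif1, also higher at both ends, had no such signal at its near end.
Tgif1 near end, chr17:71203081-71203110, plus strand: gaaaaacaaggttcagttctggctgtgtca
Tgif1 far end, chr17:71204009-71204038, plus strand: tgactctcaATTAAAaatcttgagacctca
Mpnd had the smallest p for a longer pair with siCdc73, and neither of its windows had AATAAA or ATTAAA.
Mpnd near end, chr17:56146080-56146109, minus strand: acttacatataatagatagataaaatcttt
Mpnd far end, chr17:56145300-56145329, minus strand: agtgggttcccgtgtcgttcccgtgttttt
Trip11 had more near and fewer far reads in the knockdowns, and its far end shares a stretch of letters with the near end of Mpnd.
Trip11 near end, chr12:103153836-103153865, plus strand: aagaccggAATAAAgttgtctattgcgtga
Trip11 far end, chr12:103154830-103154859, plus strand: tgtgcttacatataataAATAAAtaatttt

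Most multi-site genes had few antisense ends. There were 427 genes with 2 sites, 132 with 3, 58 with 4, 23 with 5 and 15 with 6 or more, up to 9. In 636 genes matched to an annotated start of transcription, the near end lay at a median of 641 bases upstream (quartiles 374 and 1248.5). The far end lay at a median of 1997.5 bases (quartiles 1016 and 2935.5). Of the sites of these genes, 71.1% lay within 2000 bases of the start, the limit of the study's own test of upstream antisense RNA. The spacing between near and far ends had a median of 840 bases and was under 200 bases in 149 genes. The sites of 66 genes included at least 1 inside an annotated gene on the antisense strand. In addition, 79 sites shared their position with a site listed for another gene.

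Reads were sparse and uneven. A multi-site gene had a median of 24 antisense reads over all 7 libraries (quartiles 11 and 72). The 10 most read genes held 30.3% of the 66472 antisense reads. The most read site was the near end in 295 genes and the far end in 256, and it held a median of 71.4% of a gene's reads. No read was found in either control library for 165 genes.

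AATAAA was more frequent at far ends than at near ends. It stood in 36.9% of the 655 far windows and in 30.5% of the near ones. For comparison, it stood in 47.7% of the 1600 windows of genes with 1 antisense site and in 39.6% of 38550 windows of the 3′-most exon. The share was higher among well-read sites, at 48.1% of the 374 sites with 21 or more reads in multi-site genes. Among genes with 1 antisense site, it was 62.0% of the 376 sites with as many reads. The search covered the antisense strand only, and ATTAAA was counted apart.

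Depth and labels were checked in all libraries. PASS reads ranged from 5302728 to 14340927, and RNA-seq reads from 2796693 to 8160386. In RNA-seq, Paf1 was at 120 and 163 counts per 1000000 reads (CPM) in the controls and at 22.9 and 31.8 with siPaf1. With siCdc73 Paf1 was at 270 and 367 CPM, a rise of 1.35 on the log2 scale in edgeR with batch (adjusted p = 3.73e-05) that did not pass without batch (adjusted p = 0.141). Cdc73 was at 122 and 100.0 in the controls and 14.6 and 19.3 with siCdc73. Wdr61 was at 55.7 and 132 in the controls and 5.02 with siSki8. The myoblast markers Vim and Des were present in every library, at a summed 18200 and 32400 CPM in the controls and 17200 to 31000 in the knockdown libraries for 3 markers found of 5. Of 6 markers of differentiated muscle 3 were found, with a summed level of 7.67 and 23.4 CPM in the controls, 13.5 and 47.9 with siPaf1, 7.76 and 28.8 with siCdc73 and 16.9 with siSki8. Tnnt3, a troponin gene, rose by 1.78 with siPaf1 (edgeR with batch, adjusted p = 0.000783) and 1.08 with siCdc73 (adjusted p = 0.0307). In the same fit Des, which codes for desmin, rose by 0.71 with siPaf1 (adjusted p = 0.0126), and Myf5, a myogenic factor, rose by 0.66 with siCdc73 (adjusted p = 0.036). The other markers found did not pass in that fit and went both ways. With siPaf1, Ckm changed by 1.10, Tmem8c by -0.39, Vim by -0.19 and Myf5 by -0.21. With siCdc73, Ckm changed by -0.31, Tmem8c by -0.22, Des by -0.26 and Vim by -0.04. The rises of Tnnt3, Des and Myf5 did not pass without batch, and their part in the antisense changes was not tested. The endothelial marker Cdh5 and the leukocyte marker Ptprc were at 1.3 CPM or less.

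Summed over all multi-site genes, antisense reads were more numerous with siPaf1 and siCdc73 in both batches. The sums include sites listed because they were read in a knockdown library, among them those of the 165 genes with no read in either control, which can only be higher. Levels are given as PASS reads per 1000000 PASS reads of the library (RPM). Antisense sites of these genes held 864.5 and 723.5 RPM in the control libraries of batches 1 and 2. They were 1060.0 and 1189 RPM with siPaf1, 1235 and 1089.5 with siCdc73 and 794.6 with siSki8. All siPaf1 and siCdc73 libraries lay above both controls, whereas siSki8 lay between them. Without the 10 most read genes the siPaf1 and siCdc73 libraries again lay above both controls. The values were 519.0 and 447.9 RPM in the controls, 743.3 and 819.3 with siPaf1, and 945.9 and 843.6 with siCdc73. The siSki8 library then had 505.4 RPM. In these bulk samples, fewer cells of a type and less RNA per cell cannot be told apart. With 2 libraries a group, no permutation test of such a pooled value can pass 0.05, and none is given.

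With siPaf1 and siCdc73, reads were more numerous at near, middle and far ends and not at far ends alone. Near ends held 245.6 and 229.5 RPM in the controls, 326.4 and 360.7 with siPaf1, 447.1 and 386.4 with siCdc73 and 297.0 with siSki8. All 5 knockdown libraries were above both controls there. Far ends held 448.2 and 364.4 RPM in the controls, 468.6 and 572.2 with siPaf1, 490.9 and 470.4 with siCdc73 and 309.7 with siSki8. At far ends the siPaf1 and siCdc73 libraries were again higher than both controls, but siSki8 was lower than both. For siPaf1 of batch 2 this rests on Sco2, chosen after its values were seen, whose far end held 165.1 RPM there. Without Sco2, far ends held 430.2 and 327.4 RPM in the controls, 458.5 and 407.1 with siPaf1, 480.3 and 444.8 with siCdc73 and 279.6 with siSki8, so siPaf1 of batch 2 lay between the controls. Without the 10 most read genes, far ends held 240.7 and 195.8 RPM in the controls, 299.2 and 306.0 with siPaf1 and 412.6 and 370.8 with siCdc73, all above both controls, and 186.0 with siSki8. Sites in between held 170.7 and 129.6 RPM in the controls and between 187.9 and 297.2 in the knockdown libraries.

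**Figure D1:**
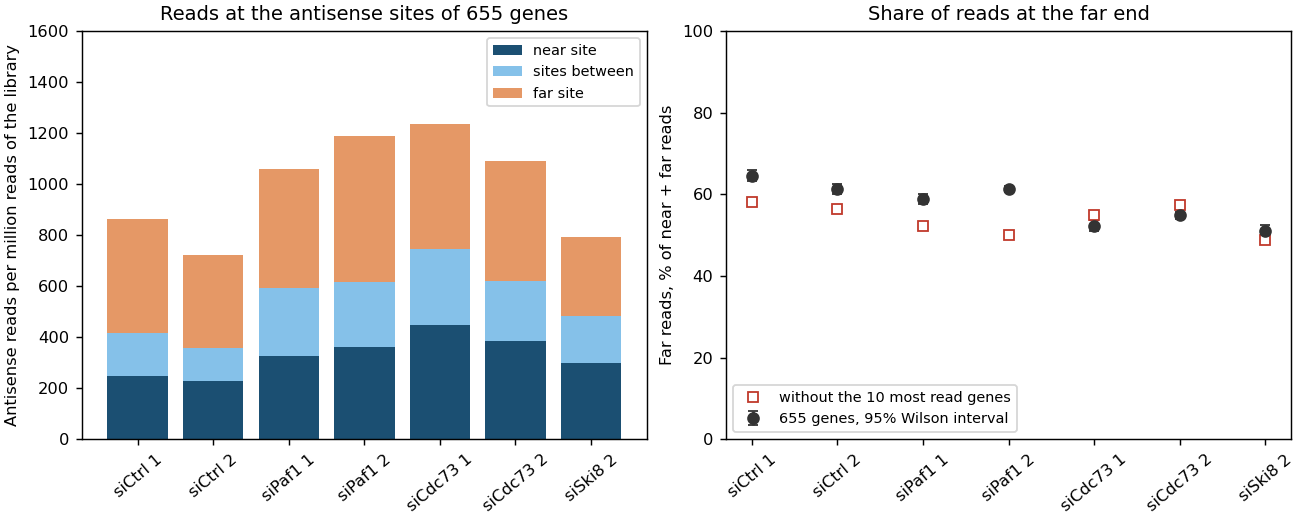
PASS reads in RPM at the antisense ends of the 655 multi-site genes, and the far end's share of near plus far reads in percent, for each 3′READS library. Near ends were higher than both controls in every knockdown library, while the far share was lower with siCdc73 and siSki8 than in either control.

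The far end's share of near and far reads did not go up in any knockdown library. It was 64.6% and 61.4% in the controls, 59.0% and 61.3% with siPaf1, 52.3% and 54.9% with siCdc73 and 51.0% with siSki8. The mean distance of a read from the start of transcription was 1766 and 1774 bases in the controls and between 1580 and 1775 bases in the knockdown libraries. These pooled values rest on a few deeply read genes. Without the 10 most read genes the far share was 58.1% and 56.3% in the controls, 52.4% and 50.1% with siPaf1, 55.0% and 57.4% with siCdc73 and 48.8% with siSki8, so siCdc73 was then no longer apart from the controls.

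When each gene was given equal weight, the mean position of reads differed little between libraries. In the 89 genes with 5 or more antisense reads in every library, the mean position of a read, on a scale from 0 at the near end to 1 at the far end, was 0.498 in both controls. It was 0.501 and 0.491 with siPaf1, 0.510 and 0.522 with siCdc73 and 0.486 with siSki8. In siCdc73 batch 2, the position was farther by over 0.1 in 20 genes and nearer in 12. The 2 control libraries differed from each other in 14 genes one way and 18 the other.

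By distance from the start of transcription, RPM was above the control of the same batch in each bin with siPaf1 and siCdc73, and the size of the difference depended on the most read genes. Within 500 bases of the start, RPM changed by 0.35 and 0.64 on the log2 scale in the batches of siPaf1, by 0.94 and 1.15 in those of siCdc73 and by 0.75 with siSki8. Without the 10 most read genes these changes were 0.49 and 1.10, 1.01 and 1.30, and 0.39. Between 1000 and 2000 bases, they were 0.03 and 0.52 with siPaf1, 0.06 and 0.20 with siCdc73 and 0.04 with siSki8, and siCdc73 of batch 2, at 251.6 RPM, lay below control 1 at 267.1 RPM. Without the 10 genes they were 0.43 and 1.19, 0.59 and 0.79, and 0.27. Between 2000 and 4000 bases, the changes were 0.23 and 0.92 with siPaf1, 0.35 and 0.66 with siCdc73 and -0.08 with siSki8. Without the 10 genes they were 0.18 and 0.30, 0.74 and 0.91, and 0.08. Each value is the sum over the genes of a bin, so single genes weigh on it.

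**Figure D2:**
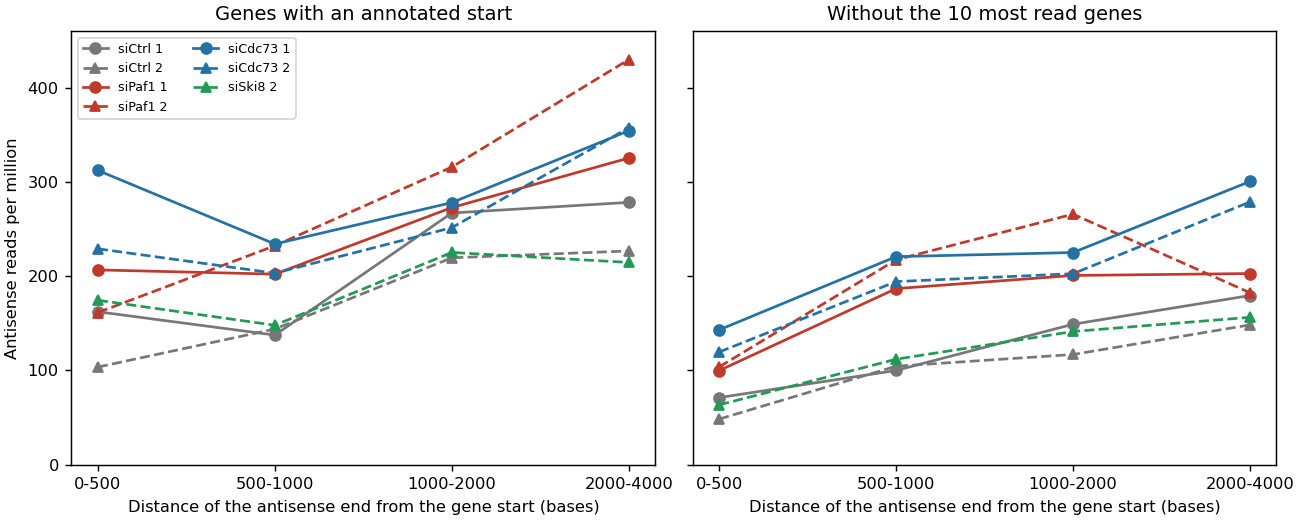
PASS reads in RPM at antisense sites in 4 bins of distance from the start of transcription (bases), 1 line per library, for genes with an annotated start (left) and without the 10 most read genes (right). From 500 to 1000 bases all siPaf1 and siCdc73 lines lie above both controls, with 202.3 to 234.2 RPM against 137.6 and 144.0.

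The far-to-near ratio was then tested gene by gene. Only 98 of the 655 pairs had at least 35 reads with 7 or more at each end, and the remaining 557 were not tested. The test was edgeR's quasi-likelihood test without batch, adjusted over 7249 pairs of antisense and 3′-most exon sites. No antisense pair changed with siPaf1, siCdc73 or siSki8 at an adjusted p under 0.05, where 0.0% of all pairs were called in either direction. At an unadjusted p under 0.05, 2 antisense pairs were longer and 1 shorter with siPaf1, 1 and 3 with siCdc73, and 0 and 1 with siSki8. The background was 1.20% longer and 2.68% shorter for siPaf1, 0.662% and 2.91% for siCdc73 and 0.124% and 0.869% for siSki8. DESeq2 called 0 antisense pairs in each comparison, against 0.523%, 0.297% and 0.0% of all pairs. In edgeR with batch, 1 antisense pair was called longer with siPaf1 and 1 with siCdc73 (0.869% and 0.497% of all pairs). In that fit 0 were called shorter (2.61% and 2.14% of all pairs). None was called for siSki8, where 0.0% of all pairs were longer and 0.0414% shorter.

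The median log2 change of the antisense far-to-near ratio was -0.29 with siPaf1, 0.18 with siCdc73 and 0.00 with siSki8. For 7151 pairs of the 3′-most exon the medians were -0.28, -0.40 and -0.37. In both batches of siPaf1, 23 antisense pairs were longer and 28 shorter, and in both batches of siCdc73 27 were longer and 26 shorter. Leaving out 1 library moved these medians: for siPaf1 it was 0.48 without siPaf1 library 2, 0.041 without control library 2 and -0.64 without control library 1. For siCdc73 it was 0.71 without control library 2, 0.49 without siCdc73 library 1 and 0.41 without control library 1. The siCdc73 median turned negative when only pairs at least 200 bases apart were kept. The standard error of a single pair had a median of 2.75 on the log2 scale for siPaf1 and 2.64 for siCdc73. A change of several fold in 1 gene was thus not detectable at this depth for most pairs.

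**Figure D3:**
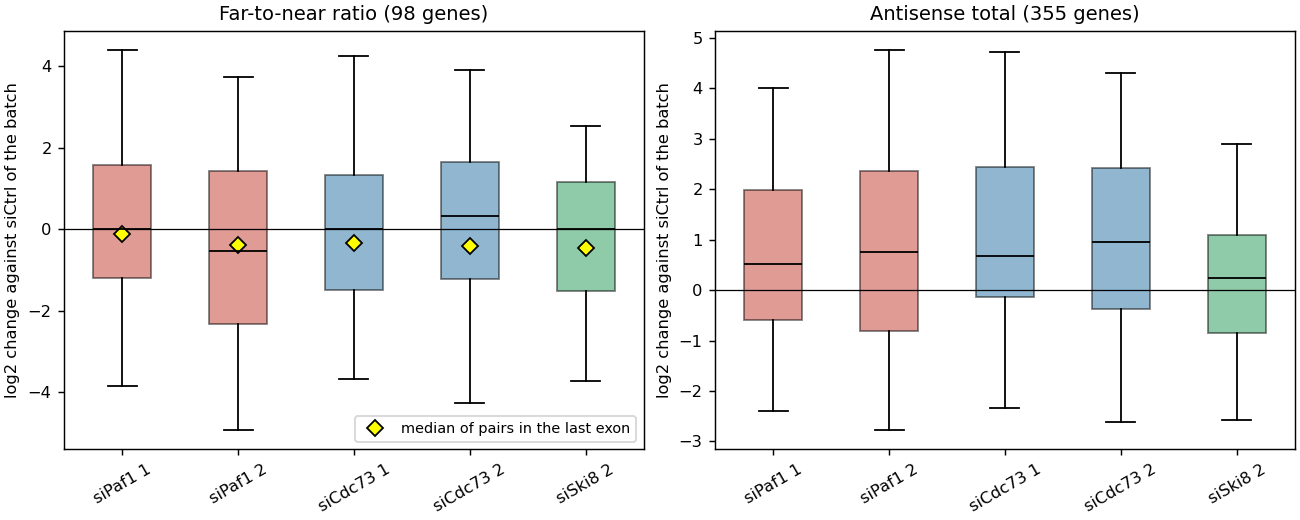
Log2 change against the control of the same batch in the far-to-near ratio of 98 pairs (left) and in the antisense total of 355 genes (right), with 0.5 reads added; boxes give quartiles, whiskers the percentiles 5 and 95, and yellow diamonds the medians of pairs in the 3′-most exon. The ratio medians are 0.00 and -0.54 for siPaf1, 0.00 and 0.32 for siCdc73 and 0.00 for siSki8, and those of the totals 0.51 and 0.76, 0.67 and 0.96, and 0.24.

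The medians were also taken by the spacing and the signals of a pair. With siCdc73 the median was 0.48 for 26 pairs under 200 bases apart, -0.45 for 35 pairs from 200 to under 1000 bases apart and 0.83 for 37 wider pairs. The same classes had medians of -0.24, -0.40 and -0.23 with siPaf1. In the 18 pairs with AATAAA at the near end only, the median was 0.64 with siPaf1 and 1.66 with siCdc73, and in the 27 pairs with AATAAA at the far end only it was -0.40 and -0.46. No test was made between these classes.

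Mpnd, which codes for a protein with an MPN domain, was the only multi-site gene whose pair passed against the control when batch was in the model. Its ends lay 2544 and 3324 bases upstream, both beyond the 2000 bases within which the study counted upstream antisense reads. Its near end held 41 and 44 reads in the controls, 23 and 39 with siPaf1, 12 and 23 with siCdc73 and 75 with siSki8. Its far end held 57 and 15 reads in the controls, 183 and 103 with siPaf1, 221 and 221 with siCdc73 and 27 with siSki8. The far share was thus 58.2% and 25.4% in the controls and above both in all 4 siPaf1 and siCdc73 libraries, between 72.5% and 94.8%. In siSki8 it was 26.5%. The far-to-near ratio changed by 2.68 (SE 1.13) on the log2 scale with siPaf1 and by 4.21 (SE 1.15) with siCdc73, with an adjusted p of 1.0 in edgeR without batch for both. Leaving out 1 library at a time gave changes from 1.709 to 3.728 with siPaf1 and from 3.235 to 5.255 with siCdc73. With batch in edgeR, the changes were 2.70 (adjusted p = 0.0231) and 4.26 (adjusted p = 6.39e-05). In that fit 0.869% of all pairs were longer and 2.61% shorter with siPaf1, and 0.497% and 2.14% with siCdc73. The ratio was also higher with siCdc73 than with siSki8, by 4.46 on the log2 scale in edgeR with batch. That difference rests on 1 siSki8 library. Other definitions of the pair with batch called 1 gene with siPaf1 and 1 with siCdc73 for the nearest against all farther ends (3.39% and 2.62% of all pairs), and 1 and 2 for the most read ends (3.45% and 2.63%). The far end itself rose in the fit with batch, by 1.79 with siPaf1 (edgeR, adjusted p = 0.00041) and 2.88 with siCdc73 (adjusted p = 1.73e-09). The near end changed by -0.84 (adjusted p = 0.331) and -1.32 (adjusted p = 0.101).

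Snx11, a sorting nexin gene, had a lower near end with siPaf1 and siCdc73. Its near end held 275 and 382 reads in the controls, 117 and 182 with siPaf1, 70 and 119 with siCdc73 and 299 with siSki8. Its far end never held more than 6 reads. All 4 siPaf1 and siCdc73 libraries were below both controls at the near end, even in reads. With batch in edgeR, the near end fell by 1.51 (adjusted p = 0.00065) and 1.79 on the log2 scale (adjusted p = 4.48e-05).

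Trip11, which codes for a Golgi golgin, had more near reads in the knockdowns. The near end held 0 and 3 reads in the controls, 9 and 10 with siPaf1, 31 and 14 with siCdc73 and 11 with siSki8. The far end held 5 and 7 reads in the controls but 0, 0, 0, 2 and 1 in the knockdown libraries. The pair did not pass with or without batch (edgeR, adjusted p of 0.147 and 0.218 with batch). The near end rose with siCdc73 in the fit with batch, by 3.86 (adjusted p = 0.00569).

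The remaining genes named for their ratios did not pass. Huwe1, a ubiquitin ligase gene, had 9 and 6 far reads in the controls, none in siPaf1, and 24 and 40 with siCdc73. At Lrr1 the far end held 3 and 22 reads in the controls, 5 and 36 with siPaf1, 2 and 8 with siCdc73 and 22 with siSki8. At Pdcd6ip, whose product ALIX acts in membrane scission, the near end held 10 and 28 reads in the controls, 13 and 13 with siPaf1 and 26 and 136 with siCdc73. None of these 3 pairs passed in edgeR with batch, where the adjusted p lay between 0.398 and 0.896 for siPaf1 and siCdc73. Tmem190, Ltbp2, Cercam and Fam193b did not pass in any knockdown in edgeR without batch either. Of these, Tmem190 has its antisense sites inside Il11, while the near ends of Ltbp2 and Cercam lie inside D030025P21Rik and 2600006K01Rik. The other ends of Ltbp2 and Cercam lie 1 to 437 bases after the 3′ ends of those genes. Reads of the genes themselves cannot be told apart there.

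**Figure D4:**
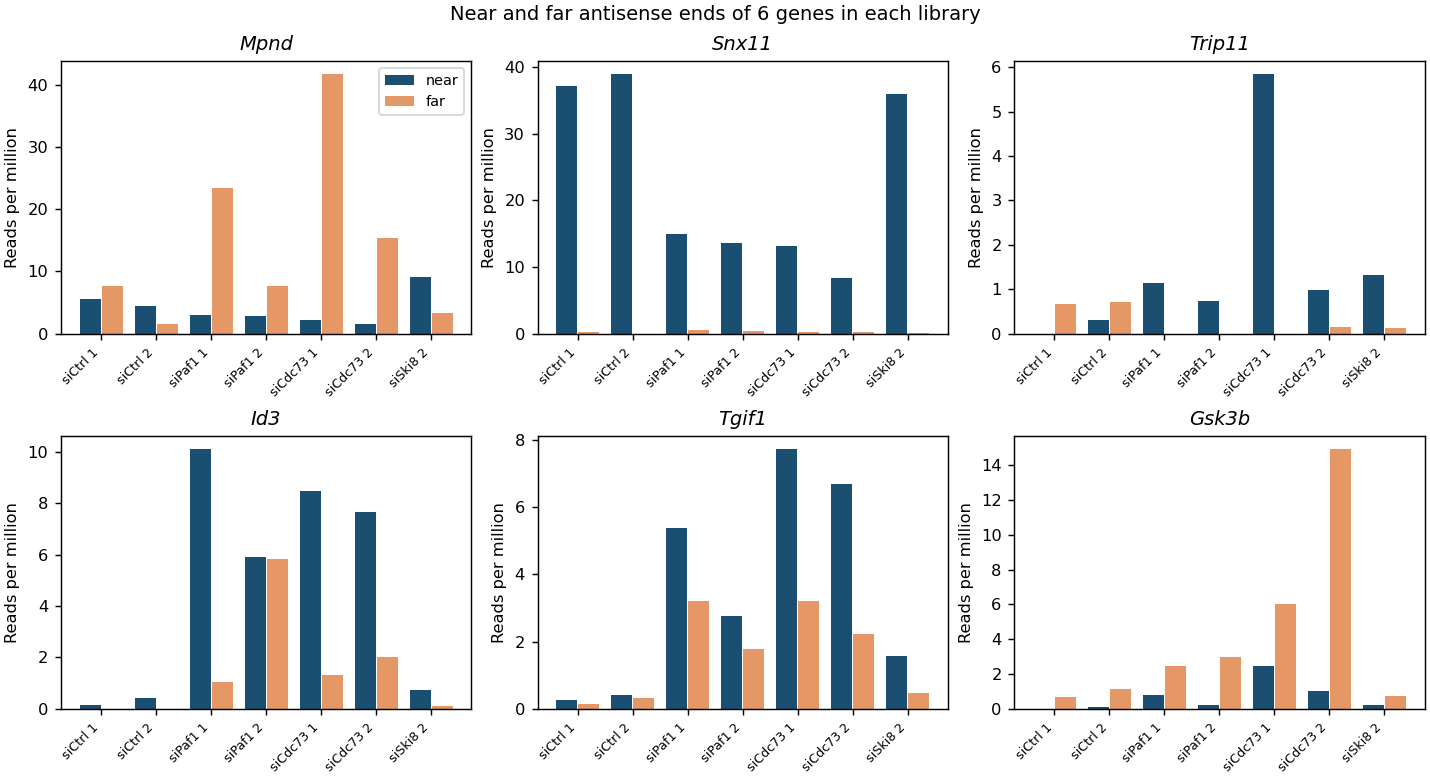
Bars give PASS reads in RPM at the near and far ends of 6 multi-site genes in each 3′READS library, with an axis of its own for each gene. Against the control of the same batch, the far end of Mpnd is higher and its near end lower with siPaf1 and siCdc73. Its far end held 7.68 RPM in siPaf1 of batch 2, about level with control 1 at 7.72 RPM. With siPaf1 and siCdc73 both ends of Id3 and Tgif1 are higher, and the near end of Snx11 is lower.

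Antisense totals, the sum over all ends of a gene, were higher with siPaf1 and siCdc73 but depended on which genes were admitted. Of the 355 genes with 21 or more antisense reads, the median log2 change was 0.60 with siPaf1, 1.10 with siCdc73 and -0.05 with siSki8. The medians over all 13763 antisense and sense totals were 0.08, 0.00 and 0.00. For 376 genes with 1 antisense site they were 0.25, 0.54 and -0.19. Without siPaf1 library 2 the siPaf1 median was 0.27. The filter on reads of all libraries admits genes through the knockdown libraries where they are high. When 187 genes were admitted by 10 or more reads in the control libraries alone, a filter that favours genes high in the controls, the medians were -0.11, 0.20 and -0.44. The direction for siPaf1 therefore turned with the filter, while that for siCdc73 stayed positive in both.

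No antisense total passed in edgeR without batch, where 0.0% of all totals were called. At an unadjusted p under 0.05, 48 genes were higher and 14 lower with siPaf1 (background 7.52% and 6.31%), 61 and 14 with siCdc73 (7.13% and 8.20%) and 8 and 5 with siSki8 (1.38% and 1.89%). DESeq2 called 11 higher and 1 lower with siPaf1 (background 2.27% and 1.85%), 18 and 6 with siCdc73 (3.14% and 3.14%) and none with siSki8 (0.0%). With batch in edgeR, 36 of 355 genes rose and 10 fell with siPaf1, against a background of 9.63% and 8.72%. With siCdc73, 53 rose and 13 fell (background 10.3% and 11.5%), and for siSki8 none did (0.102% either way). With admission by the controls alone and batch in edgeR, 23 of 187 genes rose and 10 fell with siPaf1 (background 9.78% and 8.95%). With siCdc73, 35 rose and 13 fell (10.5% and 11.5%), and for siSki8 none did (0.104% either way). With batch, the share that rose with siPaf1 was thus close to the background, at 10.1% (36 of 355). It was 12.3% under the filter on the controls. With siCdc73 the share that rose was above the background under both filters, at 14.9% and 18.7%. The shares that fell were below the background under both filters, at 2.82% and 5.35% with siPaf1 and 3.66% and 6.95% with siCdc73. The background includes sense totals, which had a median of 225 reads in multi-site genes against 24 antisense reads, so depth differs.

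Counts over all 655 genes are a description only, since a site was listed when read in any of the 7 libraries, and the 165 genes with no read in either control could not be lower. The antisense level was higher in 298 and 347 genes and lower in 227 and 218 in the batches of siPaf1, and higher in 358 and 420 and lower in 180 and 173 in those of siCdc73. In siSki8, 288 genes were higher and 230 lower. Deeper libraries find more genes. In batch 1 the control library was deeper than siCdc73 and shallower than siPaf1, and in batch 2 it was shallower than both and deeper than siSki8. The same holds for the detection of sites. Thinned to equal depth, near ends were found in 184.5 and 183.9 genes in the controls, in 221.6 to 279.5 with siPaf1 and siCdc73 and in 213.1 with siSki8. Thinning does not undo the listing of sites through reads of the knockdown libraries, so these counts too are a description only.

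Id3, an inhibitor of the myogenic helix-loop-helix factors, was higher at both ends. Its near end, 1793 bases upstream, held 1 and 4 reads in the controls, 79 and 79 with siPaf1, 45 and 110 with siCdc73 and 6 with siSki8. Its far end, 2003 bases upstream, held no read in the controls, 8 and 78 with siPaf1, 7 and 29 with siCdc73 and 1 with siSki8. Both ends were therefore higher in all 4 siPaf1 and siCdc73 libraries than in either control. In RPM the near end was 25.6-fold higher with siPaf1 (95% interval 10.7 to 79.9) and 27.1-fold higher with siCdc73 (11.4 to 84.7). The far end was at least 23.2-fold and at least 10.5-fold higher, taking 3 reads over both controls as the floor. The siPaf1 bound rests mostly on batch 2, as this end held 1.02 RPM in batch 1 and 5.82 in batch 2. The total rose in edgeR with batch, by 5.17 (adjusted p = 1.56e-05) and 5.12 (adjusted p = 1.95e-05), but not without batch (adjusted p of 0.141 and 0.123). The far-to-near ratio did not pass (edgeR, adjusted p of 0.554 and 0.713 with batch).

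Id3 was also the only multi-site gene whose antisense RNA rose against its own sense reads in edgeR without batch. The change was 4.05 with siPaf1 (adjusted p = 0.000725) and 4.35 with siCdc73 (adjusted p = 5.66e-05). Among all 966 genes tested, 0.104% were called higher in each comparison. When control library 1 was left out, neither passed. Genes entered this test by 10 antisense reads over all libraries. Id3 had 5 in the controls, 244 with siPaf1 and 191 with siCdc73, so its entry rested on the knockdown libraries. With batch in edgeR, 8 of 433 multi-site genes rose and 2 fell with siPaf1 (background 1.76% and 0.828%), and 11 rose and none fell with siCdc73 (2.38% and 0.414%). For siSki8 the background was 0.0% and 0.104%. DESeq2 called 2 genes for siPaf1, 3 for siCdc73 and none for siSki8, against 0.873%, 0.852% and 0.0% of all genes. Id3 itself did not pass in DESeq2 (adjusted p of 0.0983 and 0.0545). The median change over the 433 genes was 0.51 with siPaf1, 1.25 with siCdc73 and 0.03 with siSki8. Admission by reads of all libraries favours genes that are high in the knockdown libraries. No filter on the controls alone was run for this ratio, so neither these medians nor the counts above show a direction free of it.

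Tgif1, a homeobox corepressor of TGF-beta signalling, rose at both ends. The near end, 224 bases upstream, held 2 and 4 reads in the controls, 42 and 37 with siPaf1, 41 and 96 with siCdc73 and 13 with siSki8. The far end, 1152 bases upstream, held 1 and 3 reads in the controls, 25 and 24 with siPaf1, 17 and 32 with siCdc73 and 4 with siSki8. In edgeR with batch the near end rose by 3.34 (adjusted p = 0.000137) and 4.39 (adjusted p = 9.3e-08). The far end rose by 3.21 (adjusted p = 0.0107) and 3.52 (adjusted p = 0.00384).

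At Gsk3b, a kinase of glycogen and Wnt signalling, the ends lay 36 bases apart, and each shared its position with a site listed for another gene. The far end held 5 and 11 reads in the controls, 19 and 40 with siPaf1, 32 and 214 with siCdc73 and 6 with siSki8. Its total rose with batch in edgeR by 1.66 with siPaf1 (adjusted p = 0.0408) and 3.73 with siCdc73 (adjusted p = 0.000111). The genes 2310033P09Rik and 1810046J19Rik were higher with siPaf1 than with siCdc73. At 2310033P09Rik, the far end held 18 and 26 reads in the controls, 175 and 286 with siPaf1 and 24 and 89 with siCdc73. At 1810046J19Rik, the total was 9.53-fold higher with siPaf1 and 3.44-fold higher with siCdc73. Both totals rose in edgeR with batch, at an adjusted p of 5.38e-05 and 0.0222 for 2310033P09Rik and of 2.01e-05 and 0.00158 for 1810046J19Rik. The ends of both genes lie within 2000 bases after the annotated 3′ end of a gene on the antisense strand, Gm10434 and Gm12352, so longer RNA of those genes cannot be told apart.

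Antisense RNA fell at some genes. Stc2, which codes for the secreted glycoprotein stanniocalcin 2, held 429 and 684 far reads in the controls, 97 and 229 with siPaf1, 49 and 80 with siCdc73 and 228 with siSki8. Every knockdown library was below both controls in reads. The total fell by 2.21 with siPaf1 (edgeR with batch, adjusted p = 0.000147) and by 3.08 with siCdc73 (adjusted p = 1.62e-05). The far end of Galr2, a galanin receptor gene, held 70 and 135 reads in the controls, 24 and 23 with siPaf1, 13 and 18 with siCdc73 and 53 with siSki8. Its total fell by 1.94 and 1.70 (edgeR with batch, adjusted p of 0.00459 and 0.00943). At Acox3, a peroxisomal oxidase gene, the near end held 15 and 26 reads in the controls, 7 and 8 with siPaf1, 0 and 4 with siCdc73 and 9 with siSki8. Its total fell with siCdc73 (adjusted p = 0.00331 in edgeR with batch) and did not pass with siPaf1 (adjusted p = 0.168). Its near end lies 1970 bases after the 3′ end of 4931431C16Rik on the same strand, so longer RNA of that gene cannot be told apart.

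For siSki8, no antisense total, single site or ratio of a multi-site gene passed in edgeR with or without batch or in DESeq2. Ube2g1, a ubiquitin-conjugating enzyme gene, had 0 and 1 near reads in the controls and 6 with siSki8. It had 11 and 18 with siPaf1 and 11 and 26 with siCdc73. At Aqp2, the water channel gene with 8 antisense ends, the near end held 8 and 15 reads in the controls, 64 and 96 with siPaf1, 38 and 75 with siCdc73 and 28 with siSki8. Its far end held none in the controls and 2, 7, 1, 31 and 1 in the knockdown libraries. Tmem42, chosen as the gene with the smallest p among those lower with siSki8, had 10 and 0 near reads in the controls and none with siSki8.

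Near and far ends were also tested singly. These sites were admitted by 21 or more reads over all 7 libraries, so sites that are high in the knockdown libraries are favoured, and no filter on the controls alone was run for them. In edgeR with batch, near ends rose in 23 and fell in 3 of 135 sites tested with siPaf1, and far ends rose in 15 and fell in 6 of 137. With siCdc73 the counts were 20 and 5 for near ends and 17 and 8 for far ends. Over all pA sites 8.78% were higher and 6.41% lower with siPaf1, and 8.63% and 7.88% with siCdc73. For siSki8 no end was called, with 0.322% and 0.477% over all sites. Without batch 0.0% were called. DESeq2 called 14 of 374 near, middle and far sites with siPaf1, 20 with siCdc73 and 0 with siSki8, against 3.62%, 4.62% and 0.0% of all sites. With no filter on low counts, edgeR without batch called 19 and 13 of all 1695 sites (background 1.57% and 1.17%), 9 and 10 of 655 totals (1.63% and 1.19%) and, in RNA-seq, 9 and 12 of 295 sense genes (1.88% and 2.85%). At an unadjusted p under 0.05, near, middle and far sites together were higher in 56 and lower in 9 for siPaf1 (background 7.58% and 4.54%), in 63 and 15 for siCdc73 (7.22% and 5.85%) and in 6 and 5 for siSki8 (1.05% and 1.40%). The median log2 change without batch was 0.81 for near and 0.48 for far ends with siPaf1 and 1.03 and 1.11 with siCdc73. In the 35 genes with both ends tested, both were higher in 15 with siPaf1 and 20 with siCdc73. The near end was lower and the far end higher in 5 and 3.

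A group of sites went against the rest. The near window of Mpnd and the far window of Trip11 both hold ACATATAATA, a run of letters found in the tail of mouse B2 elements, which are short interspersed repeats. It was chosen after these windows were seen. It was present, exactly and on the antisense strand, in 44 of 1695 windows of multi-site genes (2.6%), in 75 of 1600 windows of genes with 1 antisense site (4.69%) and in 53 of 38550 windows of the 3′-most exon (0.137%). The 44 sites together held 33.7 and 30.3 RPM in the controls, 13.3 and 15.9 with siPaf1, 9.62 and 9.27 with siCdc73 and 32.4 with siSki8. All 4 siPaf1 and siCdc73 libraries were thus below both controls, and siSki8 lay between them. The 44 include the ends of Mpnd and Trip11 that gave the letters, and ends of Acox3, Lrr1 and Snx11, also named genes. Their sum is thus not independent of how these genes were chosen. The most read of the 44 were the near ends of Mpnd and 1110001A16Rik, with 257 and 226 reads over all 7 libraries. The remaining 1651 sites of multi-site genes held 830.8 and 693.2 RPM in the controls and between 1046.7 and 1225.6 with siPaf1 and siCdc73.

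The 75 such sites of genes with 1 antisense site were lower too. They held 59.3 and 52.3 RPM in the controls, 34.8 and 30.7 with siPaf1, 27.2 and 22.7 with siCdc73 and 57.7 with siSki8. Among sites in 3′-most exons, the 53 with the letters held 70.5 and 77.8 RPM in the controls, 70.5 and 75.4 with siPaf1, 59.0 and 57.5 with siCdc73 and 74.7 with siSki8. There both siCdc73 libraries were below both controls, while the siPaf1 libraries lay within about the range of the controls.

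Of the 10 tested sites of multi-site genes with these letters, 9 had a negative log2 change with siPaf1 and 9 with siCdc73, with medians of -1.36 and -1.55. The 10 include the near end of Mpnd, from which the letters were taken. For the 364 tested sites without them the medians were 0.87 and 1.11. With batch in edgeR, 2 of the 10 fell with siPaf1 and 3 with siCdc73, and none rose, beside 9 and 13 of the 364 that fell and 6.41% and 7.88% of all sites. Without batch none of the 10 was called. At an unadjusted p under 0.05, 2 and 3 of the 10 were lower, beside 7 and 12 of the 364, and in DESeq2 0 and 1 of the 10 passed as lower, beside 1 and 4 of the 364. The 10 sites include the near end of 1110001A16Rik, with 65 and 68 reads in the controls, 14 and 30 with siPaf1, 6 and 12 with siCdc73 and 31 with siSki8. The far end of Cry2, a circadian clock gene, held 41 and 19 reads in the controls, 2 and 13 with siPaf1, 7 and 11 with siCdc73 and 34 with siSki8. The near end of Acox3 and the far end of Lrr1 also hold the letters, and the near end of Snx11 holds them with 1 mismatch. The far end of Snx11 holds them exactly and was too sparse to be tested. It held 2 and 0 reads in the controls, 4 and 6 with siPaf1 and 1 and 4 with siCdc73. Allowing 1 mismatch, 74 sites held 108.3 and 96.6 RPM in the controls and between 49.0 and 78.3 with siPaf1 and siCdc73. The same letters in 236 sites of 3′-most exons stood at 7246 and 13402 RPM in the controls, 8814 and 14093 with siPaf1, 14858 and 19096 with siCdc73 and 11823 with siSki8, so there each siPaf1 and siCdc73 library was above the control of its batch. Of the 16 tested sites of multi-site genes with at most 1 mismatch, 4 had a positive log2 change with siPaf1 and 5 with siCdc73. One of the 5 was Xrcc6bp1, with 181 and 166 near reads in the controls, 102 and 186 with siPaf1 and 260 and 370 with siCdc73. The siPaf1 library of batch 2 was deeper than its control, and relative to PASS reads this site was lower with siPaf1 in both batches. No repeat annotation was used, so the match to B2 elements rests on the letters alone. If the sites lie in repeats, which have many near-identical copies, the place of their reads is uncertain even with unique alignment. No test was made of these letters as a group.

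The most read multi-site genes did not follow a single direction. Sco2, a copper chaperone gene of mitochondria, held 133 and 363 far reads in the controls, 79 and 2213 with siPaf1, 56 and 367 with siCdc73 and 249 with siSki8. One library, siPaf1 of batch 2, stood apart. The far end of Gli3, a Hedgehog transcription factor gene, held 172 and 157 reads in the controls, 450 and 715 with siPaf1, 144 and 533 with siCdc73 and 109 with siSki8. The second site of Ccdc85b held 62.6 and 27.8 RPM in the controls, 89.3 and 36.6 with siPaf1, 99.6 and 32.6 with siCdc73 and 62.4 with siSki8. Each knockdown library was above the control of its own batch, but those of batch 2 were below control 1. The far end of Ttc39d held 54.0 and 21.3 RPM in the controls, 36.1 and 12.4 with siPaf1, 16.8 and 16.9 with siCdc73 and 39.3 with siSki8, so each siPaf1 and siCdc73 library was below the control of its batch. The far end of Gm5901 held 53.6 and 24.3 RPM in the controls, 52.7 and 17.5 with siPaf1, 14.3 and 14.1 with siCdc73 and 13.0 with siSki8, again each below its control. At Poc1b, with 8 sites, all ends together held 38 reads in the controls, 39 with siPaf1, 62 with siCdc73 and 5 with siSki8. Its sites with 73, 25, 22 and 2 reads over all 7 libraries shared their position with a site listed for another gene. Those reads cannot be assigned to Poc1b alone. At Zc3h6, with 9 sites, the site 1897 bases upstream held 14 and 11 reads in the controls, 53 and 38 with siPaf1, 40 and 86 with siCdc73 and 12 with siSki8. It lies 1088 bases after the 3′ end of Gm10762 on the same strand, and 3 nearer sites lie inside that gene, so longer RNA of Gm10762 cannot be told apart.

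Sense genes changed in both directions. Sense totals of 570 multi-site genes in 3′READS had medians of 0.04, 0.02 and 0.00 with siPaf1, siCdc73 and siSki8. In RNA-seq, 276 of these genes were tested, and their median log2 changes were -0.16, -0.19 and -0.14, against 0.01, -0.02 and -0.03 for all 6550 genes. None passed in edgeR without batch (0.0% of all genes), while at an unadjusted p under 0.05 17 were higher and 25 lower for siPaf1 (background 8.61% and 8.90%), 18 and 36 for siCdc73 (9.91% and 11.2%) and 2 and 12 for siSki8 (2.46% and 3.21%). DESeq2 called 17 genes for siPaf1 and 29 for siCdc73, against 6.05% and 8.42% of all genes, and 0.0811% for siSki8. With batch in edgeR, 30 rose and 49 fell with siPaf1 (background 16.0% and 16.0%), 33 and 64 with siCdc73 (19.2% and 20.3%) and 2 and 8 with siSki8 (2.76% and 2.40%). Id3 in RNA-seq rose by 1.16 with siPaf1 in that fit (adjusted p = 0.00942) and changed by 0.57 with siCdc73 (adjusted p = 0.161). In the 1 siSki8 library Id3 went the other way, by -2.37 in edgeR without batch. Its antisense to sense ratio in 3′READS changed by 3.02 with siSki8. That ratio rests on 7 antisense reads in the siSki8 library and 5 in the controls. In RPM the antisense total of Id3 was 2.9-fold that of the controls. The interval for counting error, 0.793 to 11.6, includes no change, so no siSki8 effect on Id3 antisense RNA can be read from it.

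Genes for the factors that end or degrade antisense RNA changed in both directions, at shares to be read against the background of 16.0% each way for siPaf1, 19.2% and 20.3% for siCdc73 and 2.76% and 2.40% for siSki8 in RNA-seq with batch in edgeR. Of the cleavage and polyadenylation list, 11 of 20 genes were tested in RNA-seq, and in that fit Cstf2t and Sympk rose and Pcf11 fell with siPaf1. With siCdc73, Clp1 and Cstf2t rose and Cpsf3, Papola and Pcf11 fell, and with siSki8 Cstf3 rose. Of 5 exosome genes tested, C1d rose and Exosc8 fell with siPaf1, and Exosc10 rose and Exosc1 and Exosc8 fell with siCdc73. Of 4 genes of the exosome adaptors and cap binding, Zfc3h1 rose and Skiv2l2 fell with siPaf1, Zfc3h1 rose with siCdc73 and Rbm7 rose with siSki8. Of 6 Integrator genes, Ints3 and Ints6 fell with both siPaf1 and siCdc73, while Ints12 rose with siPaf1 and siSki8 and Ints5 with siCdc73. The 1 gene of U1 snRNP tested, Snrnp70, rose with siCdc73. None of these genes passed without batch.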

How the data were processed

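The authors deposited counts of PASS reads per pA site for 3′READS and read counts per transcript for RNA-seq, with RPKM values that were not used here. Per the submitters' notes and the methods, reads were aligned with Bowtie2 to mm9, uniquely mapped reads were kept, and PASS reads carried at least 2 non-genomic T. Chromatin immunoprecipitation samples were not analysed here. No column was left unmatched to a library.

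Upstream antisense sites were those typed UA by the authors. Sites were ordered by position, and distances were taken to starts of transcription in an mm9 annotation. Pairs entered with 35 reads in all and 7 at each end, and totals and single sites with 21. Antisense to sense ratios needed 10 antisense and 35 sense reads. For RNA-seq the transcript of a gene with the most reads on average stood for it. Counts were tested with edgeR 4.0.16 (quasi-likelihood, TMM, R 4.3.3) over whole tables with Benjamini-Hochberg adjustment at 0.05 and with no batch term. The study instead used its own tests, a significance analysis of alternative polyadenylation for pA sites and Fisher's exact test for RNA-seq. DESeq2 1.42.0, batch as a block, other filters, other pairs and each library left out were alternatives. The scripts were tested on simulated data. The labels name the batch by the replicate number, so same-numbered libraries are paired, and their deviations correlated (r from 0.388 to 0.585 for totals and from 0.622 to 0.748 for RNA-seq). Values with batch stand beside results they change. Intervals and floors (95%, 3 reads) cover counting error only, and single reads lack molecular identifiers.

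Named genes were, for each knockdown and among pairs with 70 or more reads, the 3 in each direction with the smallest p of the ratio, and the 3 rising and 2 falling by total (fewer for siSki8), changed alike in each batch. The 6 most read genes and the 3 with most sites were added. Genes of the B2 letters were named after their values were seen. The genes, lists and tests were chosen with earlier results of these data known.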

Additional observations from a re-analysis of the deposited data

How the results depend on the processing

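Batch was the choice that moved most counts. With the replicate block in edgeR, the far-to-near ratio gave 1 called gene after siPaf1 and 1 after siCdc73. In that fit 0.869% and 0.497% of all pairs were longer and 2.61% and 2.14% shorter. The nearest site against all farther ones also gave 1 and 1 (3.39% and 2.62% of all pairs). The 2 most read sites gave 1 and 2 (3.45% and 2.63% of all pairs). The same block gave 46 and 66 called antisense totals after siPaf1 and siCdc73, where 9.63% and 10.3% of all totals were called higher and 8.72% and 11.5% lower. It gave 60 and 68 called sites (8.78% and 8.63% of all sites higher, 6.41% and 7.88% lower) and 10 and 11 antisense to sense ratios (1.76% and 2.38% of all higher, 0.828% and 0.414% lower). In RNA-seq it gave 79, 97 and 10 sense genes after siPaf1, siCdc73 and siSki8 (16.0%, 19.2% and 2.76% of all genes higher, 16.0%, 20.3% and 2.40% lower). DESeq2 called 12 and 24 totals after siPaf1 and siCdc73 (2.27% and 3.14% of all totals higher, 1.85% and 3.14% lower). It also called 14 and 20 sites (3.62% and 4.62% of all sites) and 2 and 3 antisense to sense ratios (0.873% and 0.852% of all). In RNA-seq it called 17 and 29 sense genes (6.05% and 8.42% of all). With no filter on low counts, edgeR called 9 and 10 totals (1.63% and 1.19% of all totals), 19 and 13 sites (1.57% and 1.17% of all sites), and 9 and 12 sense genes (1.88% and 2.85% of all genes).

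Some alternatives were chosen after seeing the data: the limit of 2000 bases, the block with other pairs, and the filter on siCtrl. With admission of totals by siCtrl reads alone, the medians were -0.11, 0.20 and -0.44 after siPaf1, siCdc73 and siSki8. With the block as well, they were -0.073 and 0.27 after siPaf1 and siCdc73, with 33 and 48 of 187 genes called (9.78% and 10.5% of all totals higher, 8.95% and 11.5% lower). For pairs at least 200 bases apart, the siCdc73 ratio had a median of -0.16. The cause was not tested.

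Leaving out 1 library at a time moved the median ratio from -0.64 to 0.48 after siPaf1 and from 0.17 to 0.71 after siCdc73. The median total ranged from 0.27 (without siPaf1 library 2) to 0.79 after siPaf1, from 0.84 to 1.41 after siCdc73 and from -0.074 to 0.14 after siSki8. The antisense to sense calls ranged from 0 to 1 after siPaf1 and from 0 to 2 after siCdc73. Of 29 ratios and totals of named genes run under the alternatives, none changed direction, and 13 passed under at least 1 alternative without passing in the reported fit. A ratio with few reads at one end had a wide error at this depth.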
